A study of Rattus norvegicus with 6 samples.

Results

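The cytochromes P450 of families 1 to 4 are the haem enzymes of the endoplasmic reticulum that oxidise drugs, toxicants, steroids and fatty acids, and the liver holds most of them. They were taken from the table of liver RNA by their symbol, Cyp followed by a family number from 1 to 4, the letter of a subfamily and a gene number. The pattern gave 46 of the 19616 rows of the table, which carry 43 distinct symbols because Cyp2c13, Cyp3a9 and Cyp4a2 each stand on 2 rows with different Ensembl identifiers. Family 2 had 25 rows, family 4 had 15, and families 1 and 3 had 3 each.

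Male Sprague-Dawley rats of the FL group received intraperitoneal injections of CCl4 and olive oil, mixed 1 to 1, at 2 mL/kg and 2 times a week for 5 weeks, a model of liver fibrosis. Rats of the CL group received the same volume of olive oil alone. Whole liver RNA of 3 rats per group was sequenced, rats 5, 6 and 7 of CL and rats 2, 5 and 12 of FL, written here as CL5 or FL12 and listed in that order. The values are FPKM, which are scaled to the length of the gene, so levels can be compared between genes. Only reads with a single place in the genome were counted, so levels and ranks of closely related genes may be affected by missing shared reads.

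A P450 takes electrons from NADPH through the reductase Por and uses them to insert an oxygen atom into its substrate, which often makes a poison easier to excrete and sometimes makes it more reactive. The subfamilies are switched on by different receptors, with Ahr for family 1, Nr1i3 (CAR) and Nr1i2 (PXR) for subfamilies 2b and 3a, and Ppara for subfamily 4a. In rat liver several 2c and 3a enzymes also differ between the sexes under the control of growth hormone.

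The P450 pool was smaller in every FL rat than in any CL rat. The summed FPKM of the 46 rows was 7005 in CL5, 6677 in CL6 and 6331 in CL7, against 3621 in FL2, 4477 in FL5 and 4489 in FL12. The mean of FL, 4196 ± 498 (SD, n = 3), was 62.9% of the mean of CL, 6671 ± 337 (SD, n = 3), and 53.7% after scaling the rats by the median of ratios. As a share of the FPKM sum of the rat, the P450s held 1.96% to 2.26% in CL and 1.17% to 1.65% in FL. In whole tissue, fewer cells of a type and less RNA per cell cannot be told apart.

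The loss was uneven, and some members rose. Of the 38 members that averaged 0.1 FPKM or more, 5 were called higher and 7 lower in FL, meaning an adjusted p under 0.05 in limma with Benjamini-Hochberg adjustment and a change of at least 2-fold. Among all 14864 genes tested, 9.29% (1381 genes) were called higher and 0.935% (139 genes) lower. The higher P450s were Cyp1a1, Cyp1b1, Cyp2c12, Cyp2u1 and Cyp4f17, and the lower ones were Cyp2b1, Cyp2b2, Cyp2c11, Cyp2c13, Cyp3a18, Cyp3a9 and Cyp4a2. With no limit on the fold, 6 members passed upward and 14 downward, against 16.9% and 1.94% of all genes. At an unadjusted p under 0.05 in limma, 6 members were higher and 16 lower, against 31.5% and 4.04% of all genes. The FL rats lay above all CL rats for 7 tested members and below all of them for 17, where 35.7% and 4.78% of all genes did so.

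The count of higher members depended on scaling and on single rats. It was 3 higher and 9 lower with median scaling, and 3 higher and 8 lower with quantile normalization, with Cyp2u1 and Cyp4f17 lost under both, Cyp2d4 gained under both, Cyp2d3 gained under the first, and Cyp2t1 gained and Cyp2c13 lost under the second. Over all genes the split moved from 1381 higher and 139 lower to 826 and 181 with median scaling and to 453 and 231 with quantile normalization. Without CL7, 3 members and 740 genes were higher and 81 genes lower. Without FL12, 3 members were higher. The genes called higher numbered 745 without FL5, and those called lower numbered 81 without CL6. The median of all genes tested was itself shifted by 0.29 on the log2 scale, by 0.08 with median scaling and by -0.04 with quantile normalization, so list medians are given relative to it. The tested P450s had a relative median of -0.53, and -0.55 and -0.36 with those scalings. By family the relative median was -0.79 for family 2 and -0.46 for family 4, and these signs did not change under either scaling. No median is read for families 1 and 3, whose 3 rows each differed among themselves. The p-values measure only the spread between the rats of each group.

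**Figure D1:**
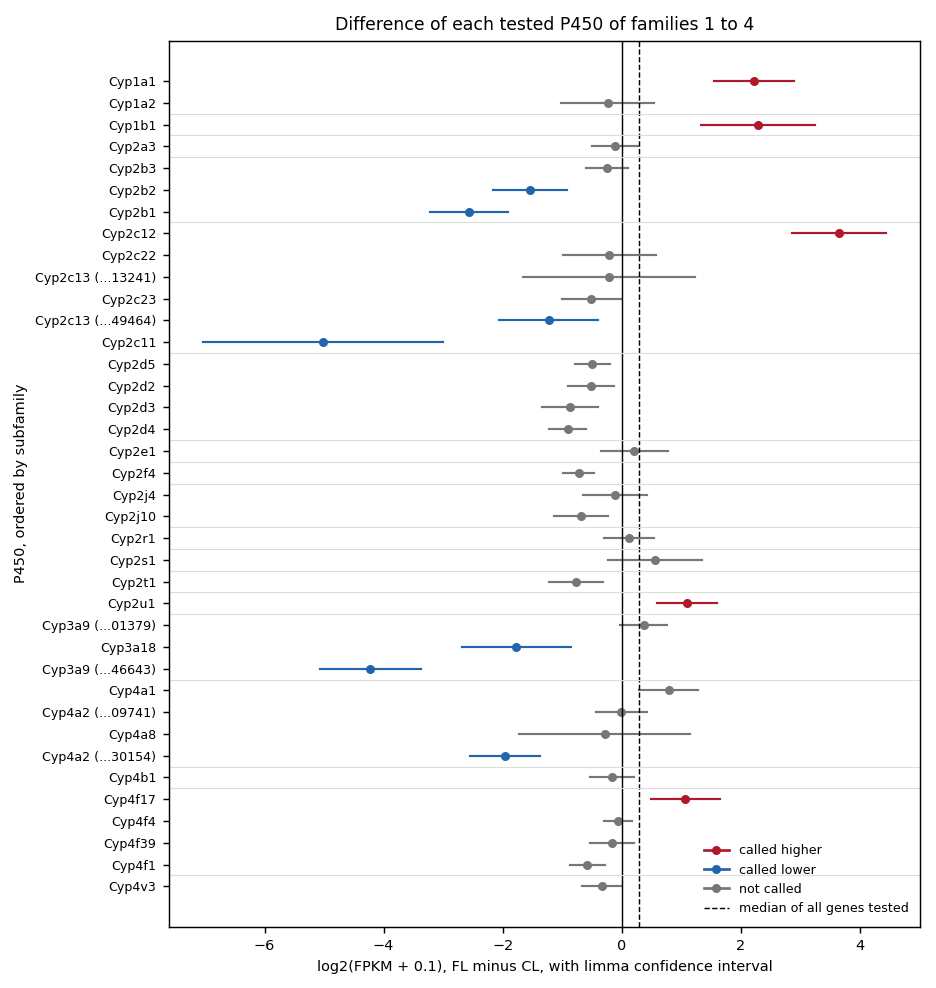
Difference of the 38 tested P450s between FL and CL on the log2(FPKM + 0.1) scale (x axis), ordered by subfamily (y axis), with points for the limma estimate, bars for the 95% confidence interval and a dashed line at the median of all genes tested, 0.29. The points reach from -5.02 for Cyp2c11 to 3.65 for Cyp2c12, and 28 of the 38 lie below 0.

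Family 1 holds the P450s that the aryl hydrocarbon receptor Ahr induces. Of its 3 members, 2 were called higher and none lower, against 9.29% and 0.935% of all genes. Of these 2, Cyp1b1 was so low in CL that it could have been called in 1 direction only. Cyp1a1, the inducible oxidase of polycyclic aromatic hydrocarbons, stood at 1.17, 1.25 and 1.03 FPKM in CL and at 8.65, 3.62 and 5.91 FPKM in FL. All 3 FL rats lay above the CL rats, FL2 highest. The mean rose 5.27-fold, with a log2 difference of 2.22 ± 0.29 (SE, n = 3) and a limma adjusted p of 0.0046. Cyp1b1, an oxidase of estrogens and aromatic hydrocarbons that is mostly found outside hepatocytes, was listed at 0.02, 0.06 and 0.04 FPKM in CL and 0.32, 0.85 and 0.68 FPKM in FL. The groups did not overlap, FL5 was highest, and the gene passed the filter on low values only through its FL rats. Its log2 difference was 2.29 ± 0.41 (SE, n = 3, limma adjusted p = 0.011), which a pseudocount of 1 reduced to 0.62 (limma adjusted p = 0.022, range over the alternatives 0.0059 to 0.0495). On this scale the change of a gene near the pseudocount is understated, and its values rest on few reads.

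Cyp1a2, the constitutive liver member of the family and an oxidase of caffeine and aromatic amines, behaved differently from its neighbour Cyp1a1. It measured 353, 388 and 369 FPKM in CL and 520, 187 and 316 FPKM in FL. The FL rats lay on both sides of the narrow CL group, FL2 above it and FL5 and FL12 below it. The log2 difference was -0.24 ± 0.34 (SE, n = 3) with a limma adjusted p of 0.64, and its sign changed without FL5, to 0.13.

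Subfamilies 2b and 3a are the classic drug-inducible P450s, targets of CAR and PXR. Of their 6 tested rows, 4 were called lower and none higher (0 of the 6 at an unadjusted p under 0.05 in limma). The shares of all genes called were 0.935% lower and 9.29% higher, and 31.5% were higher at that unadjusted p. The 4 include the row named Cyp2b1, whose gene is uncertain, as described below. Cyp2b2, an oxidase of drugs that phenobarbital induces, gave 70.3, 75.5 and 50.4 FPKM in CL and 14.3, 26.8 and 27.8 FPKM in FL. Every FL rat was below every CL rat, and FL2 was lowest. The FL mean was 35.1% of the CL mean, a log2 difference of -1.54 ± 0.27 (SE, n = 3, limma adjusted p = 0.010).

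The row named Cyp2b1, the closest relative of Cyp2b2, measured 142, 160 and 151 FPKM in CL and 15.4, 36.8 and 28.5 FPKM in FL. Again no FL rat reached the CL range and FL2 was lowest, with a log2 difference of -2.57 ± 0.28 (SE, n = 3, limma adjusted p = 0.0029). The table lists this row on chromosome 7, with the 2d genes, whereas RefSeq's gene table of GRCr8 places Cyp2b1 among the other 2b genes, so which gene the row measured is uncertain. Cyp2b3, the most abundant 2b row over the 6 rats and not known to respond to phenobarbital, had 104 to 127 FPKM in CL and 80.6 to 106 FPKM in FL. Its groups overlapped, and its log2 difference of -0.25 ± 0.15 (SE, n = 3) did not pass (limma adjusted p = 0.28). The summed FPKM of subfamily 2b was 331 ± 22.4 in CL and 147 ± 14.2 in FL (SD, n = 3). This sum includes the uncertain row named Cyp2b1, with means of 151 FPKM in CL and 26.9 FPKM in FL.

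Cyp3a18, a male-biased steroid hydroxylase and the most abundant 3a row, stood at 324, 297 and 265 FPKM in CL and at 69.7, 176 and 52.3 FPKM in FL. Each FL rat was lower, and FL5 was nearest to the CL group. The log2 difference was -1.77 ± 0.40 (SE, n = 3, limma adjusted p = 0.022). Leaving out CL5, CL6, CL7 or FL12 raised the limma adjusted p to between 0.056 and 0.069, with estimates from -1.41 to -1.85. The call was kept without FL2 (log2 difference -1.62, limma adjusted p = 0.047) and without FL5 (-2.28, limma adjusted p = 0.0042).

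Cyp3a9, a steroid hydroxylase known as female-biased, stood on 2 rows that went apart. Row ENSRNOG00000046643 had 16.7, 14.4 and 13.1 FPKM in CL and 0.92, 1.08 and 0.31 FPKM in FL. It was low in all FL rats, at 5.22% of the CL mean, with a log2 difference of -4.22 ± 0.37 (SE, n = 3, limma adjusted p = 0.0016). Row ENSRNOG00000001379 had 4.25, 3.91 and 4.27 FPKM in CL and 4.62, 4.90 and 6.82 FPKM in FL, slightly above CL in every FL rat, with a log2 difference of 0.37 ± 0.17 (SE, n = 3) that did not pass (limma adjusted p = 0.16). The authors counted only reads with a single place in the genome, so reads shared by copies may be missing. The sequences of both rows were not compared.

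Subfamily 2c carried most of the P450 RNA in CL and most of the loss in FL. Its share of the P450 sum was 57.2% to 59.0% in CL and 40.5% to 53.0% in FL, and its summed FPKM was 3888 ± 137 in CL and 2028 ± 491 in FL (SD, n = 3). Cyp2c11, the main male-specific P450 of rat liver and a hydroxylase of testosterone and epoxygenase of arachidonic acid, was listed at 1188, 845 and 738 FPKM in CL. In FL it was at 20.5, 134 and 7.76 FPKM. No FL rat came near the CL group, and the FL rats also differed widely among themselves, FL5 highest and FL12 lowest.

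The mean of Cyp2c11 was 5.86% of that in CL and its log2 difference was -5.02 ± 0.87 (SE, n = 3, limma adjusted p = 0.0098). It ranked 2nd of the P450s by mean in CL and 13th in FL, and its share of the P450 sum went from 11.7% to 17.0% in CL rats to 0.173% to 3.00% in FL rats. Without Cyp2c11 the P450 sum was still lower in FL, 5747 ± 134 FPKM in CL and 4142 ± 474 FPKM in FL (SD, n = 3), or 72.1%.

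Cyp2c13, another male-specific steroid hydroxylase, had the highest mean of all members in CL on row ENSRNOG00000049464. It measured 1457, 1359 and 1316 FPKM in CL and 358, 966 and 586 FPKM in FL. The groups did not overlap, and FL2 was lowest. The log2 difference of -1.23 ± 0.36 (SE, n = 3) passed narrowly (limma adjusted p = 0.049). It was lost in 10 of 14 alternatives, with a limma adjusted p of up to 0.22 under quantile normalization, and leaving out CL5, CL6, CL7 or FL12 gave 0.11 to 0.13. Without FL2 the adjusted p was 0.049 in limma, but the difference of -0.87 came under 2-fold. The second Cyp2c13 row had 1.14 to 4.84 FPKM in CL and 0.88 to 4.37 FPKM in FL, with no separation.

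Cyp2c12, the female-specific member of the subfamily and a hydroxylase of steroid sulphates, went the opposite way. In CL it stood at 2.47, 6.89 and 6.37 FPKM, and in FL at 62.3, 62.0 and 58.9 FPKM. The FL rats were close to each other, at 61.1 ± 1.85 FPKM (SD, n = 3), and far above the CL rats, at 5.24 ± 2.42 FPKM (SD, n = 3). The mean rose 11.6-fold, with a log2 difference of 3.65 ± 0.34 (SE, n = 3, limma adjusted p = 0.0017), and the gene moved from rank 27 to rank 12 among the P450s. In the male rats of FL, Cyp2c12 thus exceeded Cyp2c11 in FL2 and FL12 but not in FL5.

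All 4 tested rows of the male-biased P450s had negative differences. The 3 tested female-biased rows went both ways, with the 2 rows of Cyp3a9 apart from each other. Of all 14864 genes tested, 3289 had negative differences. The second Cyp2c13 row, at -0.22, changed sign over the alternatives (-0.77 to 0.32). Of the 5 male-biased symbols, 3 were found on 4 rows, and 3 rows were called lower and none higher (0 at an unadjusted p under 0.05 in limma). For both sex-biased lists, the shares of all genes called were 0.935% lower and 9.29% higher. At that unadjusted p, 31.5% of all genes were higher. Cyp2a2 and Cyp3a2 were not analysed here. Of the 4 female-biased symbols, 3 were found. Of their 3 tested rows 1 was called higher (Cyp2c12) and 1 lower (Cyp3a9, row ENSRNOG00000046643). The second Cyp3a9 row did not pass (log2 difference 0.37, limma adjusted p = 0.16). The row named Cyp2c7 was listed at 0 in all rats but FL2, with 0.08 FPKM. A row outside the symbol pattern, named Cyp2c7l1 by RefSeq, had 283 to 343 FPKM in CL and 84.3 to 425 FPKM in FL. Whether it holds reads of Cyp2c7 was not tested. Cyp2a1 was not analysed here.

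The other abundant 2c members changed less. Cyp2c23, an arachidonic acid epoxygenase, had 703, 875 and 902 FPKM in CL and 583, 643 and 507 FPKM in FL. All FL rats were below the CL rats, but the log2 difference of -0.52 ± 0.21 (SE, n = 3) did not pass (limma adjusted p = 0.13). Cyp2c22 had 651, 830 and 775 FPKM in CL and 442, 563 and 1084 FPKM in FL. FL12 was above and FL2 and FL5 below all CL rats, so the groups overlapped (log2 difference -0.21 ± 0.34, SE, n = 3, limma adjusted p = 0.68), and the sign changed without FL2, to 0.06. With the 2j members, the 2c rows form the arachidonic acid epoxygenase list. Of its 8 tested rows 1 was called higher and 2 lower, against 9.29% and 0.935% of all genes.

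**Figure D2:**
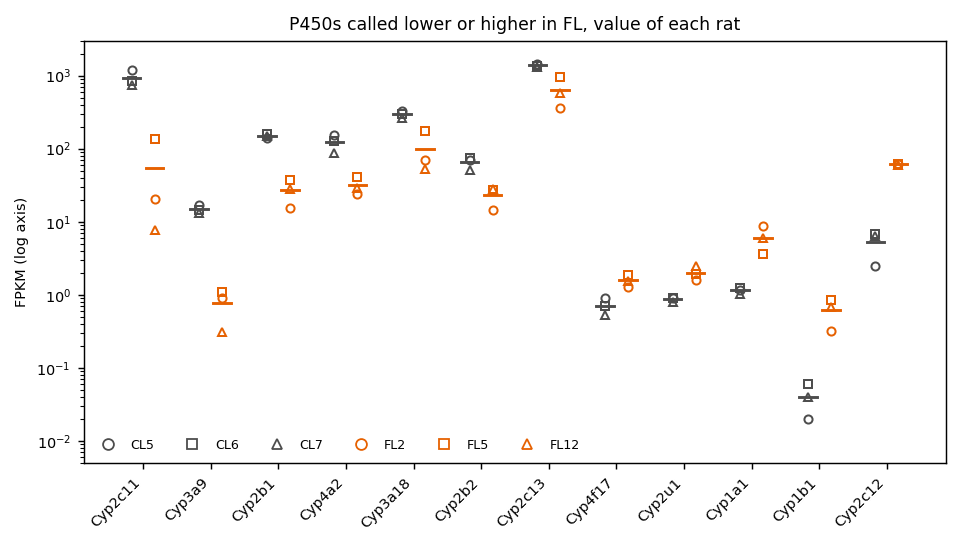
FPKM of the 12 P450 rows called in FL (log y axis), with symbols for single rats, grey for CL and orange for FL, and bars for the group means, ordered by the log2 difference (x axis). Cyp2c11 spans 7.76 to 134 FPKM among the FL rats, while Cyp2c12 spans 58.9 to 62.3 FPKM.

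Cyp2e1, which oxidises ethanol and is known for turning CCl4 into a radical, became the most abundant P450 of FL by mean, from rank 5 in CL. Within each FL rat it ranked 2nd, behind Cyp2c23 in FL2, Cyp2c13 in FL5 and Cyp2c22 in FL12. Its own level did not pass the test. It measured 705, 535 and 601 FPKM in CL and 549, 720 and 888 FPKM in FL. FL5 and FL12 were above all CL rats and FL2 was within their range. The log2 difference was 0.21 with a 95% confidence interval of -0.36 to 0.78 (n = 3, limma adjusted p = 0.57), and it was -0.01 with median scaling.

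**Figure D3:**
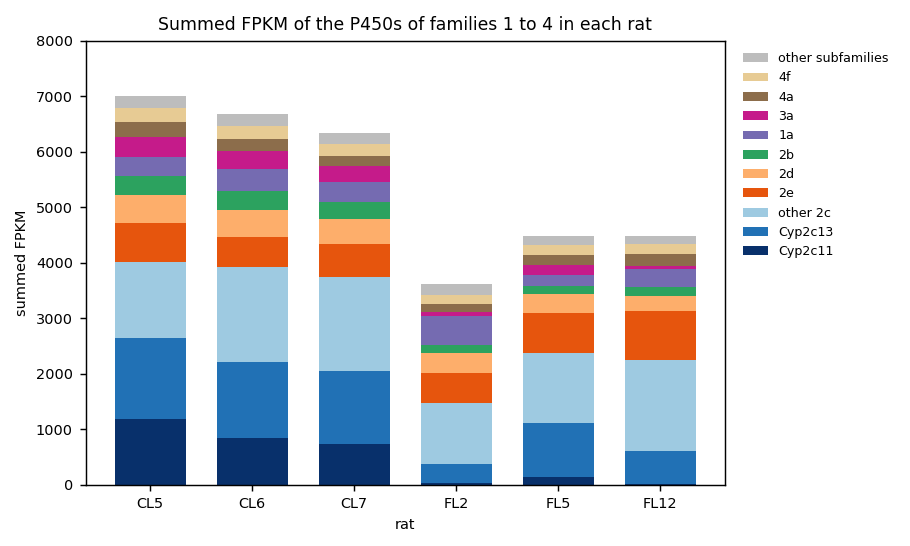
Summed FPKM of the P450s of families 1 to 4 (y axis) in each of the 6 rats (x axis), with colours for subfamilies and for Cyp2c11 and Cyp2c13 apart. The bars end between 6331 and 7005 FPKM in CL and between 3621 and 4489 FPKM in FL, and the Cyp2c11 block is nearly gone in FL2 and FL12.

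Subfamily 2d, which oxidises many basic drugs, was lower as a group by less than 2-fold. In all 4 rows every FL rat was below every CL rat, as in 4.78% of all genes. Cyp2d2, the most abundant, had 386, 374 and 346 FPKM in CL and 285, 273 and 220 FPKM in FL, with FL12 lowest. Its log2 difference was -0.51 ± 0.17 (SE, n = 3) and did not pass (limma adjusted p = 0.069). Cyp2d3, Cyp2d4 and Cyp2d5 passed without reaching 2-fold, with log2 differences of -0.87, -0.91 and -0.49 and limma adjusted p of 0.026, 0.0060 and 0.036 (ranges over the alternatives 0.014 to 0.082, 0.0041 to 0.028 and 0.016 to 0.11). None of the 4 was called lower by the full rule, while 4 of 4 had an unadjusted p under 0.05 in limma. The shares of all genes were 1.94% passing downward and 4.04% lower at that unadjusted p. With median scaling Cyp2d3 and Cyp2d4 were called, and without FL2 Cyp2d3 was called. The summed FPKM was 483 ± 32.3 in CL and 325 ± 48.9 in FL (SD, n = 3).

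Of the remaining members of family 2, Cyp2f4, a naphthalene oxidase of the airways, fell from 15.9 ± 1.51 to 9.57 ± 0.28 FPKM (SD, n = 3, log2 difference -0.73 ± 0.11, SE, limma adjusted p = 0.0069). The epoxygenase Cyp2j10 fell from 20.7 ± 4.30 to 12.8 ± 2.69 FPKM (SD, n = 3, log2 difference -0.69 ± 0.20, SE, limma adjusted p = 0.047, 0.022 to 0.14 over the alternatives). Cyp2t1 fell from 8.93 ± 0.20 to 5.30 ± 1.38 FPKM (SD, n = 3, log2 difference -0.78 ± 0.20, SE, limma adjusted p = 0.032, 0.024 to 0.11 over the alternatives). All 3 were lower in every FL rat than in any CL rat. Cyp2a3, a coumarin oxidase, overlapped between the groups at 77.8 to 106 FPKM in CL and 72.1 to 96.4 FPKM in FL. Cyp2r1, a hydroxylase of vitamin D, overlapped too, at 2.17 to 2.89 FPKM in CL and 2.55 to 3.36 FPKM in FL, as did Cyp2s1 at 0.18 to 0.39 FPKM in CL and 0.34 to 0.47 FPKM in FL. None of these 3 passed, with limma adjusted p of 0.64, 0.65 and 0.28, and the signs of Cyp2r1 and Cyp2s1 changed under quantile normalization.

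Cyp2u1, a hydroxylase of long-chain fatty acids, rose from low levels. It was at 0.90, 0.92 and 0.80 FPKM in CL and at 1.58, 1.93 and 2.52 FPKM in FL. Every FL rat exceeded every CL rat, FL12 most. The log2 difference was 1.09 ± 0.22 (SE, n = 3, limma adjusted p = 0.014), and the call was lost in 5 of 14 alternatives, among them those without CL7 (limma adjusted p = 0.060) and without FL12 (difference 0.93). The limma adjusted p ranged from 0.0094 to 0.083 over the alternatives.

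Family 4 holds the ω-hydroxylases of fatty acids and leukotrienes. Of the 8 tested rows of subfamilies 4a and 4f, 1 was called higher and 1 lower, and 1 more passed in each direction without reaching 2-fold. The shares of all genes were 9.29% called higher and 0.935% lower, and 16.9% passing upward and 1.94% downward. Cyp4a2, an ω-hydroxylase of lauric and arachidonic acid, measured 154, 129 and 86.7 FPKM in CL and 24.2, 40.7 and 29.3 FPKM in FL on row ENSRNOG00000030154. The groups did not overlap, and the FL mean was 25.5% of the CL mean (log2 difference -1.96 ± 0.25, SE, n = 3, limma adjusted p = 0.0044). Its second row, ENSRNOG00000009741, stayed level, with 56.0, 38.5 and 38.1 FPKM in CL and 36.0, 46.9 and 47.6 FPKM in FL. The groups overlapped there, with a log2 difference of -0.01 ± 0.19 (SE, n = 3, limma adjusted p = 0.97), and these sequences were not compared either.

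Cyp4a1, the ω-hydroxylase known as the main target of Ppara, moved against Cyp4a2. It had 69.6, 54.9 and 48.9 FPKM in CL and 77.3, 95.0 and 131 FPKM in FL. All FL rats were above the CL rats, FL12 highest, and the mean rose 1.75-fold (log2 difference 0.79 ± 0.22, SE, n = 3, limma adjusted p = 0.041, 0.020 to 0.14 over the alternatives). Cyp4a1 thereby replaced Cyp4a2 as the leading 4a row, and the summed FPKM of subfamily 4a was 227 ± 53.0 in CL and 178 ± 33.4 in FL (SD, n = 3).

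In subfamily 4f, Cyp4f1, an ω-hydroxylase of leukotriene B and the most abundant row of the family, had 189, 186 and 169 FPKM in CL and 115, 125 and 124 FPKM in FL. It was lower in every FL rat, by a log2 difference of -0.58 ± 0.13 (SE, n = 3, limma adjusted p = 0.020, 0.0090 to 0.073 over the alternatives). Cyp4f4, with the same activity, was nearly level at 50.6 ± 1.73 FPKM in CL and 48.2 ± 1.12 FPKM in FL (SD, n = 3). Cyp4f17 had 0.90, 0.70 and 0.53 FPKM in CL and 1.29, 1.88 and 1.57 FPKM in FL. It was higher in all FL rats, with a log2 difference of 1.06 ± 0.25 (SE, n = 3, limma adjusted p = 0.025). The call was lost in 7 of 14 alternatives, with a limma adjusted p of 0.069 without CL6, 0.091 without CL7, 0.088 without FL5 and 0.066 without FL12, and of 0.17 under quantile normalization.

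Cyp4v3, a fatty acid hydroxylase, had 47.3 to 53.3 FPKM in CL and 33.0 to 46.9 FPKM in FL, lower in every FL rat but not past the test (limma adjusted p = 0.15). Cyp4b1, known for oxidising furan toxins in the lung, overlapped at 4.13 to 5.40 FPKM in CL and 3.92 to 5.02 FPKM in FL (limma adjusted p = 0.48). The 8 rows under the limit on low values were Cyp2b21, Cyp2c65, Cyp2c7, Cyp4f18, Cyp4f37, Cyp4f40, Cyp4f6 and Cyp4x1. Cyp4f18, at 0.05 to 0.07 FPKM in CL and 0.07 to 0.19 FPKM in FL, had the highest mean of them in FL, and Cyp2c65 was listed at 0 in all 6 rats.

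The FL rats did not share 1 profile. Among the 7 members called lower, FL5 was the rat nearest to the CL mean for 6 and FL12 for 1, and among all 14 that passed downward, FL5 was nearest for 10. FL2 lay farthest from the CL mean for 4 of the 7 called lower and FL12 for 3, while among the 14 it was FL12 for 8 and FL2 for 6. For the higher members the nearest rat was mostly FL2, for 3 of the 5 called and 4 of the 6 that passed upward. The leading P450 also differed, Cyp2c13 in all CL rats and in FL5, Cyp2c23 in FL2 and Cyp2c22 in FL12. The 5 most abundant members made up 66.6% to 68.4% of the P450 sum in CL and 67.7% to 75.3% in FL. Members of at least 100 FPKM numbered 11 to 14 in CL and 8 or 9 in FL.

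The electron donors of the P450s mostly had negative differences, with Por as the exception. Of the 7 electron donors and partners, all tested, none was called in limma, 1 passed upward and 1 downward without reaching 2-fold, and at an unadjusted p under 0.05 the numbers were 1 and 3 of 7, where 31.5% and 4.04% of all genes were so. Por, the reductase that feeds electrons to every microsomal P450, had 41.4, 50.9 and 57.3 FPKM in CL and 73.6, 84.9 and 113 FPKM in FL. Each FL rat lay above the CL rats, a rise of 1.82-fold in the mean (log2 difference 0.85 ± 0.19, SE, n = 3, limma adjusted p = 0.022, 0.015 to 0.071 over the alternatives). Of the other 6, all negative, 3, Cyb5r3, Cyb5a and Pgrmc1, lay below CL in every FL rat, where 4.78% of all genes did. The cytochrome b reductase Cyb5r3 fell from 88.4 ± 5.96 to 59.3 ± 5.73 FPKM (SD, n = 3, log2 difference -0.58 ± 0.12, SE, limma adjusted p = 0.019, 0.0080 to 0.069 over the alternatives). The summed FPKM of the list, led by Cyb5a, was 832 to 946 in CL and 598 to 760 in FL, and its relative median was -0.57, near that of the P450s.

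Of the 13 genes of haem synthesis and breakdown, 1 was called higher, 2 passed upward and none passed downward in limma (0 at an unadjusted p under 0.05). Among all genes, 9.29% were called higher and 16.9% passed upward, so these counts do not set the haem genes apart. Alas1, which makes the first precursor of haem, had 65.0, 97.1 and 86.3 FPKM in CL and 53.4, 86.6 and 70.3 FPKM in FL. The groups overlapped, and the log2 difference of -0.25 ± 0.21 (SE, n = 3) did not pass (limma adjusted p = 0.44). Hmox1, which breaks haem down, had 7.13, 10.5 and 5.86 FPKM in CL and 19.8, 19.2 and 10.7 FPKM in FL. Each FL rat was higher, FL12 only just, with a log2 difference of 1.06 ± 0.28 (SE, n = 3, limma adjusted p = 0.038), but the call was lost in 9 of 14 alternatives (limma adjusted p 0.021 to 0.13), among them those without CL5, CL7, FL2 or FL5. Blvra, which reduces biliverdin, was the other gene that passed, from 3.99 ± 1.27 to 7.61 ± 1.50 FPKM (SD, n = 3, log2 difference 0.94 ± 0.24, SE, limma adjusted p = 0.035, 0.026 to 0.12 over the alternatives).

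The 4 receptors best known for inducing P450s did not pass the test, although Ahr and Nr1i3 each did under 1 alternative. Ahr had 31.5, 17.8 and 20.0 FPKM in CL and 11.4, 11.6 and 18.1 FPKM in FL. The groups overlapped through FL12 (log2 difference -0.74 ± 0.25, SE, n = 3, limma adjusted p = 0.080, and 0.045 with median scaling, range 0.045 to 0.21). Nr1i2 was narrow in both groups, at 28.6 to 31.0 FPKM in CL and 33.1 to 34.7 FPKM in FL, above CL in every FL rat (log2 difference 0.20 ± 0.10, SE, n = 3, limma adjusted p = 0.19), and its sign changed under median scaling. Nr1i3 had 10.2 to 14.1 FPKM in CL and 11.6 to 23.9 FPKM in FL, and Ppara 19.0 to 34.8 FPKM in CL and 18.3 to 42.0 FPKM in FL. Both overlapped, with limma adjusted p of 0.16 and 0.85 (0.027 to 0.40 and 0.40 to 0.98 over the alternatives). Nr1i3 passed only without FL2, and the sign of Ppara also depended on the scaling.

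Over the whole list of receptors and factors of P450 transcription, 2 of 19 tested rows were called higher and 1 more passed upward. These shares were near those of all genes, 9.29% called higher and 16.9% passing upward. All 3 are the PAR bZIP factors, which bind the D-box and follow the daily clock. Dbp had 0.46, 0.91 and 0.81 FPKM in CL and 25.6, 27.1 and 31.8 FPKM in FL. The groups were far apart and narrow, with a 38.7-fold higher mean in FL (log2 difference 5.13 ± 0.23, SE, n = 3, limma adjusted p = 1.3e-04). Hlf rose from 3.36 ± 0.84 to 7.10 ± 1.84 FPKM (SD, n = 3, log2 difference 1.05 ± 0.25, SE, limma adjusted p = 0.025), a call that was lost in 8 of 14 alternatives (limma adjusted p 0.020 to 0.14), among them those without CL5, CL6, FL2 or FL12. Tef rose from 5.09 ± 0.50 to 9.45 ± 1.86 FPKM (SD, n = 3, log2 difference 0.87 ± 0.16, SE, limma adjusted p = 0.012, 0.0095 to 0.054 over the alternatives), under 2-fold. The hours of sampling were not given in the sources used here.

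Among 9 genes of growth hormone signalling, the hormone system behind the sex-biased P450s, none was called, 2 passed downward and 1 upward, and at an unadjusted p under 0.05 in limma the numbers were 3 and 1. The shares of all genes were 1.94% passing downward and 16.9% upward, and 4.04% and 31.5% at that unadjusted p. The receptor Ghr had 94.1, 89.9 and 85.3 FPKM in CL and 48.1, 56.0 and 64.4 FPKM in FL. Its target Igf1 had 254, 297 and 301 FPKM in CL and 178, 150 and 129 FPKM in FL. Both were lower in every FL rat, with log2 differences of -0.68 ± 0.14 and -0.91 ± 0.17 (SE, n = 3) and limma adjusted p of 0.015 and 0.012 (0.0068 to 0.053 and 0.0066 to 0.052 over the alternatives). The kinase Jak2 passed upward, from 2.50 ± 0.18 to 3.89 ± 0.66 FPKM (SD, n = 3, log2 difference 0.61 ± 0.17, SE, limma adjusted p = 0.042, 0.031 to 0.44 over the alternatives).

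**Figure D4:**
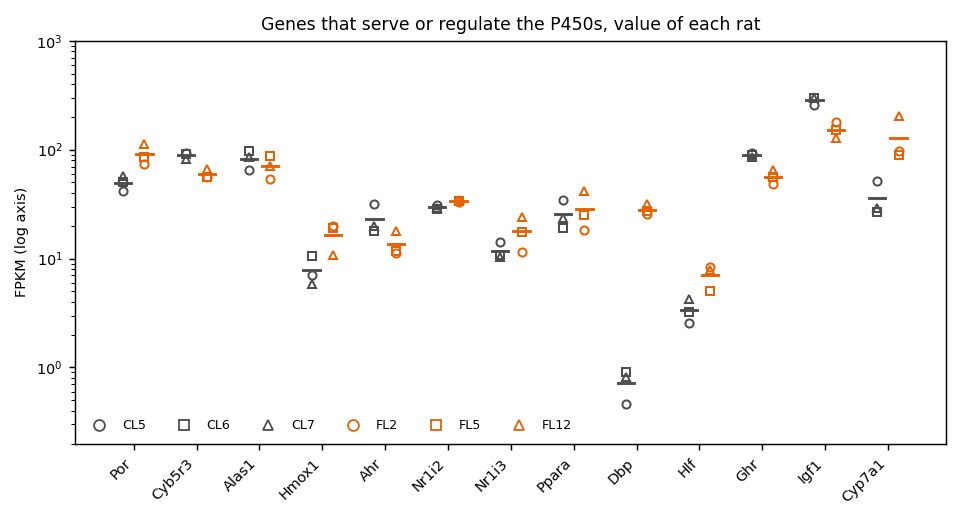
FPKM (log y axis) of 13 genes that serve or regulate P450s or make bile acids (x axis), with symbols for single rats, grey for CL and orange for FL, and bars for the group means. Por and Dbp are higher in all FL rats, Ghr and Igf1 are lower in all of them, and Alas1, Ahr, Nr1i3 and Ppara overlap.

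Promoters were searched for 3 kinds of letters that are known to be read by factors above. RefSeq's promoter table of GRCr8, with 250 bases before and 50 after each start, held 37 of the 43 symbols in 40 promoters, not those of Cyp1a1 and Cyp4f17. Both strands were searched for GCGTG, the core of the dioxin response element, for the D-box TTANGTAA and for the STAT5 letters TTCNNNGAA. GCGTG was in 12 of the 40 promoters (30.0%) and in 29.7% of all 33469 promoters of the table, the D-box in 1 (2.5%) and in 2.24% of all, and the STAT5 letters in 5 (12.5%) and in 8.87% of all. Among the 3 symbols called higher with a promoter, Cyp1b1 and Cyp2u1 held GCGTG 2 times each, and among the 7 called lower, Cyp2b1 and Cyp2b2 held it, where the row of Cyp2b1 may measure another gene. Cyp2b2 alone held the D-box, and the promoters of Cyp2c11 and Cyp2c12 held none of the letters in this window. The matches of Cyp1b1, Cyp2u1 and Cyp2b2, with the letters found in capitals and all on the strand of the gene, were as follows.
Cyp1b1, chr6:21094476-21094496, plus strand, GCGTG on the opposite strand: ccgcccctCACGCcccacccc
Cyp1b1, chr6:21094537-21094557, plus strand, GCGTG: gagggatgGCGTGtcgcctct
Cyp2u1, chr2:222541035-222541055, minus strand, GCGTG on the opposite strand: cagaggggCACGCggctcagc
Cyp2u1, chr2:222541011-222541031, minus strand, GCGTG: tccggaggGCGTGccttgcct
Cyp2b2, chr1:90722170-90722190, plus strand, GCGTG: agcaggagGCGTGaacatctg
Cyp2b2, chr1:90722049-90722072, plus strand, D-box on the opposite strand: acacccatTTACATAAaacaagag
The same GCGTG window stands in the promoter of Cyp2b1, letter for letter. A match describes these letters and no binding was measured.

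Some marker genes of other cells of the liver were higher in FL. Of 9 tested stellate cell or myofibroblast-like markers, 4 were called higher, Col3a1, Col1a1, Pdgfrb and Des, and none lower. The shares of all genes called were 9.29% higher and 0.935% lower. The summed FPKM of the stellate list was 80.9, 89.7 and 80.9 in CL and 198, 540 and 489 in FL, and Col3a1 was the most abundant. Of 9 macrophage-like markers, 4 were called higher, Cd68, Marco, Lyz2 and Csf1r, where 9.29% of all genes were. The sum of the 9 markers was 146, 136 and 142 in CL and 332, 323 and 200 in FL. By mean, Clec4f was the most abundant of them in CL and Cd5l in FL. The call of Csf1r was lost without FL5 and under both scalings, where its log2 difference of 1.13 came under 2-fold (0.91 with median scaling, 0.93 with quantile normalization). The 5 fibrosis genes Col1a1, Col3a1, Acta2, Timp1 and Lox are all in the stellate list too, so they add no separate result. Their 2 calls, both higher, are those of Col1a1 and Col3a1 above, where 9.29% of all genes were called higher. Acta2, Timp1 and Lox did not pass (limma adjusted p of 0.061, 0.079 and 0.26). The sums of the 5 genes were 54.1 to 64.3 in CL and 166 to 471 in FL.

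FL2, the rat with the smallest P450 pool, had the lowest stellate sum of the FL rats. Its macrophage sum was the highest but close to that of FL5, at 332 and 323 FPKM, with Marco at 79.0 and 43.9 FPKM. Marco, Clec4f and Vsig4 were higher in FL2 than in FL5, and Cd68, Cd163, Cd5l, Adgre1, Csf1r and Lyz2 were lower. Of 6 cholangiocyte-like markers 1 was called higher, Spp1, where 9.29% of all genes were. The sum of the 6 markers was 5.75, 10.6 and 6.32 FPKM in CL, where Epcam was the most abundant, and 12.7, 68.7 and 42.4 FPKM in FL, where Spp1 was. Of 6 cycling genes 2 were called higher, Birc5 and Mki67, the most abundant by mean, against 9.29% of all genes. The sum of the 6 genes was 2.49, 4.71 and 3.02 FPKM in CL and 4.18, 19.5 and 16.6 FPKM in FL. These calls depended on single rats and on settings. That of Spp1 was lost without CL7 (limma adjusted p 0.0057 to 0.051 over the alternatives), that of Birc5 without CL5, CL7, FL5 or FL12 and under quantile normalization (0.0042 to 0.069). That of Mki67 was lost without any rat but FL2, and also with all rats kept under both scalings, a pseudocount of 1, no filter, no trend or a robust prior (limma adjusted p 0.0046 to 0.14). The 6 tested endothelial-like markers, led by Fcgr2b by mean, gave no call (2 higher at an unadjusted p under 0.05 in limma, near the 31.5% of all genes), although Stab2 passed upward under 2-fold (log2 difference 0.75 ± 0.15, SE, n = 3, limma adjusted p = 0.014, and 0.056 without CL7), with sums of 81.4 to 92.7 FPKM in CL and 86.3 to 109 FPKM in FL. The 6 tested lymphocyte-like markers, led by Nkg7 in CL and by Cd8a in FL by mean, gave no call either (1 higher at an unadjusted p under 0.05 in limma, under that share), with sums of 1.62 to 2.40 FPKM in CL and 2.12 to 5.72 FPKM in FL. No marker of these lists was at 0 in all 6 rats, and their part in the result was not tested.

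The markers of hepatocytes, the cells that hold most P450s, went both ways. None of the 10 hepatocyte-like markers was called, where 9.29% of all genes were called higher and 0.935% lower. At an unadjusted p under 0.05 in limma 1 was higher and 1 lower, against 31.5% and 4.04% of all genes. The fit gave very abundant genes wide errors, as for Alb (log2 difference -0.38 ± 0.98, SE, n = 3), whose groups did not overlap. The lack of a call therefore says little about such genes. The summed FPKM of the 10 markers, led by Alb, was 58312, 55707 and 56870 in CL and 49419, 48542 and 47225 in FL, lower in every FL rat. The means were 56963 ± 1305 and 48395 ± 1105 (SD, n = 3). Alb, Ttr, Apoc3 and Hnf4a lay below CL in every FL rat, at 76.9%, 65.1%, 54.0% and 86.5% of the CL mean, and Apoa1 and Tf above it, at 167% and 124%. Among all genes, 4.78% lay below CL in every FL rat and 35.7% above. The list had a relative median of -0.38, and -0.39 with median scaling, but 0.36 with quantile normalization, where its sign flipped.

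Most liver P450s are known to lie near the central vein, so genes of both ends of the lobule outside the P450s were read too. Of 10 pericentral genes, 2 were called higher, Tbx3 and Rhbg, and Glul and Axin2 passed upward under 2-fold, where 9.29% of all genes were called higher and 16.9% passed upward. None was called lower in limma, and 1 was lower at an unadjusted p under 0.05, Oat, at 49.9% of the CL mean with overlapping groups (limma adjusted p = 0.086). Glul, the glutamine synthetase of the last row of cells around the vein, had 107, 89.1 and 80.7 FPKM in CL and 135, 133 and 194 FPKM in FL. It was above CL in all FL rats (log2 difference 0.73 ± 0.19, SE, n = 3, limma adjusted p = 0.034, 0.031 to 0.13 over the alternatives). The call of Rhbg was lost without FL5 or FL12 (limma adjusted p 0.011 to 0.055), and that of Tbx3 without CL6, CL7 or FL5 and under quantile normalization (0.0087 to 0.071). Of 10 periportal genes none was called, and Hal and Uroc1 passed downward, as 1.94% of all genes did, with log2 differences of -0.96 and -0.92 and limma adjusted p of 0.035 and 0.0091 (0.0089 to 0.10 and 0.0079 to 0.041 over the alternatives). The summed FPKM was 441 to 609 in CL and 511 to 654 in FL for the pericentral list, led by Rgn, and 2197 to 2319 in CL and 1305 to 2419 in FL for the periportal list, led by Ass1 by mean.

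The P450s of families 5 and above, which mostly make or clear sterols, bile acids and retinoids, were read beside families 1 to 4. Of 16 rows, 11 were tested, 2 were called higher and none lower (1 lower at an unadjusted p under 0.05 in limma). The shares of all genes called were 9.29% higher and 0.935% lower. At that unadjusted p 5 rows were higher, where 31.5% of all genes were higher and 4.04% lower. Cyp7a1, the first enzyme of bile acid synthesis, had 51.1, 27.0 and 29.4 FPKM in CL and 96.3, 89.2 and 202 FPKM in FL. All FL rats were above the CL rats, FL12 highest (log2 difference 1.80 ± 0.35, SE, n = 3, limma adjusted p = 0.013), and without CL7 the adjusted p was 0.057. Cyp17a1, a steroid hydroxylase and lyase, rose from 2.32 ± 0.74 to 6.46 ± 1.31 FPKM (SD, n = 3, log2 difference 1.47 ± 0.26, SE, limma adjusted p = 0.011). The summed FPKM of these rows, led by Cyp27a1 in CL and by Cyp8b1 in FL by mean, was 365 ± 72.9 in CL and 588 ± 30.4 in FL (SD, n = 3). Cyp7a1 and Cyp8b1 carried most of that rise. Cyp8b1 had 94.1 ± 17.9 FPKM in CL and 225 ± 116 FPKM in FL (SD, n = 3). Its groups overlapped through FL12, at 92.3 FPKM, and it did not pass (limma adjusted p = 0.11). Whether the difference between the families exceeds chance was not tested.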

How the data were processed

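RNA of 6 rat livers, 3 per group, was compared, with groups and rat numbers taken from the labels. Per the methods, the authors cleaned reads with FASTX-Toolkit 0.0.13, aligned them with TopHat2, allowing 4 mismatches, and deposited FPKM per gene, for which no scaling between rats is named. The build named is GRCh38, a human one, while the identifiers are of rat genes, so the reference behind the FPKM is uncertain. Another 2 columns of values name no sample and were not used. FPKM were tested as log2(FPKM + 0.1) with limma 3.58.1 in R 4.3.3, with a trended prior, over 14864 genes averaging 0.1 or more, with Benjamini-Hochberg adjustment over all of them. Genes were called at an adjusted p under 0.05 and 2-fold. The code was tested on simulated data. Named members were those called, the most abundant of each subfamily and the 10 highest in CL; in other lists, up to 4 called genes, and Por, Nr1i2, Nr1i3, Ahr, Ppara, Alas1 and Hmox1. Other genes were named after their values were seen. Members and lists were chosen with earlier results of these data known. Alternatives were other pseudocounts, filters, scalings and priors, no fold limit, and leaving out each rat. Sequencing totals per rat were not available. Steps in low values of U6 genes put the depth of the other rats at 0.64 to 0.84 of that of CL5, so values near 0.1 FPKM rest on few reads.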

Additional observations from a re-analysis of the deposited data

How the results depend on the processing

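With 3 rats per group, counts of calls depended on settings and single rats. The 1381 genes higher became 854 at a mean FPKM of at least 1, 826 with median scaling, 462 with a pseudocount of 1, 453 with quantile normalization, 2518 with no limit on the fold, and 740 to 1831 with 1 rat left out. The 139 genes lower became 72 with a pseudocount of 1, 231 with quantile normalization, 288 with no limit on the fold, and 81 to 160 with 1 rat left out. The 5 P450s called higher became 3 with median scaling, 2 with a pseudocount of 1, 3 with quantile normalization, and 3 to 5 with 1 rat left out, and the 7 called lower became 14 with no limit on the fold and 5 to 8 with 1 rat left out. Their relative median of -0.53 was -0.36 with quantile normalization and -0.72 to -0.46 with 1 rat left out, and the summed FPKM of 62.9% was 53.7% with median scaling and 60.7% to 67.2% with 1 rat left out. Signs reversed for log2 differences of Cyp2e1 (-0.0145, median scaling), Cyp1a2 (0.13 without FL5, lowest -0.61), Cyp2c22 (0.0625 without FL2, lowest -0.58), Cyp2r1 (-0.0947 with median scaling, -0.27 with quantile normalization, -0.00104 without CL6, highest 0.20), Cyp2s1 (-0.0467, quantile normalization), Nr1i2 (-0.0202, median scaling) and Ppara (-0.13 with median scaling, -0.0136 with quantile normalization, -0.104 without CL6, -0.23 without FL12, highest 0.37). Outside the rule for named members, signs also changed for the second rows of Cyp4a2 (-0.24 to 0.17) and Cyp2c13 (-0.77 to 0.32), for Cyp4a8 (-1.11 to 0.12) and for Cyp2j4 (-0.33 to 0.13). The cause was not tested. No paired analysis was possible because the groups share no rat and only the number 5. RNA of whole liver does not show enzyme protein or activity.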

Other observations

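Some P450 rows of the table fell outside the symbol pattern and so outside all counts above. LOC100361492, which RefSeq's gene table of GRCr8 names Cyp2c55 by its gene number, had 0.14, 0.16 and 0.09 FPKM in CL and 2.69, 7.0 and 7.73 FPKM in FL. All FL rats were far above the CL rats, with a 44.7-fold higher mean and a log2 difference of 4.56 ± 0.40 (SE, n = 3, limma adjusted p = 0.0016). The estimate depended on the pseudocount, because the CL values lie near it, and was 2.49 with a pseudocount of 1 and 5.27 with 0.01. LOC100361547, named Cyp2c7l1 in the same table, had 343, 283 and 285 FPKM in CL and 352, 84.3 and 425 FPKM in FL. FL5 stood apart from the other FL rats there, and the groups overlapped (limma adjusted p = 0.65). Cyp2c6v1 overlapped as well, at 307 to 557 FPKM in CL and 238 to 374 FPKM in FL, while Cyp3a23/3a1 had 5.89 to 10.5 FPKM in CL and 4.22 to 5.83 FPKM in FL and did not pass (limma adjusted p = 0.067). These rows were chosen after their values were seen.

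CL5 differed from the other CL rats in genes that growth hormone pulses induce. Socs2 had 14.2, 90.1 and 69.4 FPKM in CL, Cish had 0.74, 11.2 and 10.4 FPKM, and the factor Onecut1 had 2.14, 26.2 and 26.0 FPKM. The FL rats had 5.30 to 28.1, 0.87 to 2.62 and 5.25 to 22.4 FPKM. CL5 was the low rat of its group for all 3 genes, within the FL range for Socs2 and below every FL rat for Cish and Onecut1. The same rat had the highest Cyp2c11 and the lowest Cyp2c12 of its group. Leaving out CL5 kept the calls of Cyp2c11 and Cyp2c12. It lost those of Cyp3a18 and Cyp2c13, as leaving out CL6, CL7 or FL12 did, and their estimates hardly moved (-1.70 and -1.19 without CL5, -1.77 and -1.23 with all rats).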
